A study of Mus musculus with 34 samples.

Results

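Goitrogens are agents that stop the thyroid from making hormone. The change in liver transcripts that accompanied goitrogen exposure, whether or not thyroid hormone (TH) was injected afterwards, was measured by comparing 16 exposed pups with 18 unexposed pups, which together are all 34 arrays of the series. The groups were set by the treatment labels, and the difference, termed the goitrogen coefficient, was taken from 1 fit with goitrogen, hormone injection and sex as terms. Each array set liver RNA of 1 C57BL/6 pup at postnatal day (PND) 15, labelled with Cy5, against a universal mouse reference RNA, labelled with Cy3. The 8 control pups (4 males and 4 females) received no goitrogen and were injected with saline. The 10 hyper pups (5 males and 5 females) received no goitrogen and were injected with 50 µg T4 and 5 µg T3 per 100 g body weight. The 9 hypo pups (4 males and 5 females) were nursed for 3 days by dams that drank water with 0.05% methimazole (MMI) and 1% sodium perchlorate, and were injected with saline. The 7 hypo+ pups (4 males and 3 females) had the same goitrogens and were injected with 20 µg T4 and 2 µg T3 per 100 g. The paper states that pups of this treatment were divided by their measured serum T4. Those kept as hypo+ had T4 close to or a little above control, and those with T4 like hyper pups were not put on arrays. Livers were taken 4 h after the injection. Because hyper and hypo+ pups received different hormone doses, goitrogen and dose cannot be told apart within the injected pups. The same holds for goitrogen and the selection of hypo+ pups on serum T4. The goitrogens went to the dam, so that litter-mates share an exposure. The first digits of the animal numbers point to 20 litters, 10 of them exposed, an inference that the labels do not state, and p-values otherwise measure the spread between pups.

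MMI blocks thyroid peroxidase and perchlorate blocks iodide uptake, so that both lower the supply of T4 and T3. In liver, TH acts through nuclear receptors that change the transcription of genes of lipid synthesis, cholesterol handling and deiodination. The liver also answers electrophiles and oxidants through the transcription factor NRF2, which binds the antioxidant response element (ARE) of genes for glutathione S-transferases (GSTs), quinone reduction and thioredoxin recycling.

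To show what an ARE core looks like in genes that rose with goitrogen, the stretch around the match is printed for 5 of them. Sequences are from RefSeq on GRCm38.p6 and are written 5′ to 3′ along the gene, with the match to TGACNNNGC, on either strand, in capitals. Pir lies at chrX:164269187-164269255 on the plus strand, Txnrd1 at chr10:82859084-82859152 (plus), Htatip2 at chr7:49759433-49759501 (plus), Ugdh at chr5:65435936-65436004 (minus) and Prdx1 at chr4:116685436-116685504 (plus).

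Pir: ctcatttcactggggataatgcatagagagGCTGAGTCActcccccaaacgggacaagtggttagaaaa

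Txnrd1: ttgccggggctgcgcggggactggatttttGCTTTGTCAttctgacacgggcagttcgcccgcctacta

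Htatip2: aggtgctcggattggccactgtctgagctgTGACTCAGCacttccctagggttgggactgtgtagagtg

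Ugdh: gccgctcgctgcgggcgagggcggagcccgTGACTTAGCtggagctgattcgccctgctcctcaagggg

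Prdx1: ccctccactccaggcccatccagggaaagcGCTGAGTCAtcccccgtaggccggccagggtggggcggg

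These letters are common. The core was found in 2224 of 16473 promoter windows (13.5%) of the 13209 array genes with a window, each window being 300 bases long and starting 250 bases before the gene. It was found in 67 of 431 windows (15.5%) of the genes that rose with goitrogen, in 65 of 469 windows (13.9%) of those that fell, and in 7 of 29 windows (24.1%) of the GST and NRF2 genes that rose. Of 68 called genes named here that had a window, 16 held the core. Among them were Sned1, Mvk, Hsph1, Dhcr7, Me1, Cyp8b1, Sdf2l1 and Prodh, which fell. Of the 8 genes described below in which every exposed pup lay above every unexposed pup, 2 held it, Pir and Srxn1. A match is only a description of these letters. A window of 300 bases without the core does not show that the gene lacks an ARE elsewhere. The DR4 element, a direct repeat of the thyroid hormone receptor half-site AGGTCA with 4 bases between, was found in 0 of the 16473 windows. This search allowed no mismatch in either half-site and covered 300 bases. The paper lists imperfect DR4 elements, many of them further from the gene start, which such a search cannot find. The 0 therefore does not show that thyroid response elements are absent.

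The arrays were of like quality with and without goitrogen. The share of probes well above background in the Cy5 channel lay between 63.0% and 79.4% on the arrays of exposed pups and between 60.8% and 79.0% on the others. The 8 liver genes that mark hepatocytes had mean log2 ratios to the reference of 4.2 or more in every pup, and albumin was well above background on all 34 arrays. Digestive enzyme genes of pancreatic acinar cells stood apart in 4 libraries, namely control pups 832, 522 and 831 and hypo+ pup 543. The mean log2 ratio of 12 acinar genes was between 2.28 and 4.83 in these 4 and between 0.46 and 0.83 in the other 30, and all 12 were detected on some arrays. By group it ranged from 0.57 to 4.83 in control, from 0.51 to 0.80 in hyper, from 0.46 to 0.66 in hypo and from 0.59 to 2.28 in hypo+ pups. Without these 4 libraries, 1136 probes passed the test of the goitrogen coefficient, where all 34 arrays gave 1588. Named genes whose call was lost without them are given beside their results.

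Goitrogen exposure was followed by many small changes and few large ones. A probe or gene is said to have been called, and to have risen or fallen, when its p-value, adjusted by Benjamini-Hochberg over all 41174 probes in limma, was below 0.05. For the goitrogen coefficient, 3.86% of probes were called, with 807 higher (1.96%) and 781 lower (1.9%). The share of calls that were higher was 50.8%, and it was 67.1% of 1807 calls with normexp background correction and 36.3% of 157 calls with median centring in place of loess. Of 16534 genes with a symbol, each read from its brightest probe, 859 were called (5.2%), 408 of them higher (2.47%) and 451 lower (2.73%). The median size of a called difference was 0.22 on the log2 scale, a 1.17-fold change. More than 2-fold changes were found in 6 genes that rose and 2 that fell, and more than 1.5-fold changes in 17 each way. With the presumed litter as a random block, 710 genes were called (4.29%), 343 higher and 367 lower. RNA of a whole liver was measured, so that a lower share of cells of a type and less RNA per cell cannot be told apart.

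The same exposure was read separately without hormone (hypo minus control) and with hormone (hypo+ minus hyper), and these comparisons share no arrays. In a fit of 4 groups, hypo minus control called 528 probes (1.28%) and 301 genes (1.82%), 149 higher (0.901%) and 152 lower (0.919%). Without the 4 libraries rich in acinar transcripts it called 304 probes. The difference of hypo+ from hyper called 1506 probes (3.66%) and 812 genes (4.91%), 290 higher (1.75%) and 522 lower (3.16%). The number called in hypo+ minus hyper rested on single pups, being 699 probes without hypo+ pup 601, 833 without hypo+ pup 761 and 1002 without hyper pup 864. Of the 859 genes of the goitrogen coefficient, 502 (58.4%) had the same direction in both comparisons with an unadjusted p below 0.05 in each. This was so of 266 of 408 (65.2%) that rose and 236 of 451 (52.3%) that fell. Another 135 passed it in hypo minus control alone and 222 in hypo+ minus hyper alone. These shares describe genes chosen by a coefficient that averages both comparisons.

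Arrays that had no part in choosing the genes were read by fitting each set of 17 arrays alone. Hypo against control called 249 genes (1.51%), of which 209 (83.9%) had the same direction in the 17 injected arrays, 96 of 114 higher and 113 of 135 lower. Of these, 27 and 23 were also called there. Of all genes, 46.8% were higher and 53.2% lower in hypo+ than in hyper. Conversely, hypo+ against hyper called 411 genes (2.49%), of which 342 (83.2%) had the same direction in hypo against control, 144 of 160 higher and 198 of 251 lower. Again 27 and 23 were also called there. Of all genes, 48.8% were higher and 51.2% lower in hypo than in control. The median of the 160 was 0.34 in hypo+ against hyper and 0.16 in hypo against control. For the 251 it was -0.33 and -0.07. Without the 4 libraries rich in acinar transcripts the share of 83.2% became 72.1%.

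**Figure D1:**
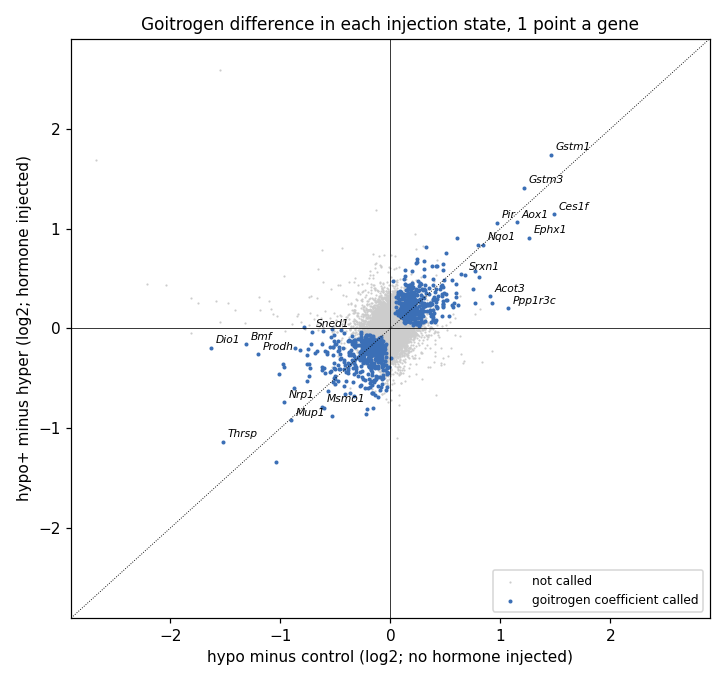
Goitrogen difference of each gene without hormone (horizontal axis, hypo minus control, log2) and with hormone (vertical axis, hypo+ minus hyper, log2), 1 point a gene. Blue points are the 859 genes called for the goitrogen coefficient, grey points the others. Gstm1 and Gstm3 lie far out near the dotted line of equal differences, whereas Dio1, at -1.63 and -0.19, lies near the horizontal axis.

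In 8 of 16534 genes (0.0484%), every exposed pup lay above every unexposed pup, and in none did every exposed pup lie below. Gstm1, a mu-class GST, had the largest coefficient of all called genes. Its log2 ratio to the reference had a lowest, median and highest value of 1.97, 2.21 and 2.45 in control, of 1.62, 1.82 and 2.35 in hyper, of 3.11, 3.69 and 4.16 in hypo and of 3.32, 3.66 and 4.02 in hypo+ pups. Both exposed groups thus stood clear of both unexposed groups. The coefficient was 1.60 (SE 0.09, 95% interval 1.41 to 1.79), a 3.03-fold increase, with an adjusted p of 4.45e-14 in limma. It was 1.46 (SE 0.13) without hormone and 1.74 (SE 0.13) with hormone, and the interaction was not called (adjusted p = 0.664). A second Gstm1 probe gave 1.09.

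Gstm3, another mu-class member, ran from 1.92 to 2.27 in control (median 2.13) and from 1.66 to 2.21 in hyper (median 1.88), against 2.83 to 3.73 in hypo (median 3.35) and 2.94 to 3.50 in hypo+ pups (median 3.32). The highest unexposed pup was well under the lowest exposed pup. It rose 2.47-fold (coefficient 1.31, SE 0.07, limma adjusted p = 3.22e-14). Srxn1, which encodes sulfiredoxin and restores oxidized peroxiredoxins, spanned -0.83 to -0.58 in control (median -0.75) and -0.94 to -0.66 in hyper (median -0.80). It spanned -0.37 to 0.29 in hypo (median -0.07) and -0.36 to -0.0011 in hypo+ pups (median -0.28). The gap between the exposed and unexposed pups was narrower than for the GSTs, but no pup crossed it. Srxn1 rose 1.52-fold (coefficient 0.61, SE 0.05, limma adjusted p = 4.12e-10), and its other probes gave 0.31 and 0.37, both called.

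The other genes without overlap were Aox1, Pir, Nqo1, Gstp1 and Creg1. Aox1 encodes aldehyde oxidase, and was between -0.09 and 0.45 in unexposed pups and between 0.63 and 2.08 in exposed pups (coefficient 1.11, 2.15-fold). Pir, whose ARE core is printed above, encodes the iron-binding nuclear protein pirin. It was between -0.38 and 0.55 without and between 0.61 and 1.51 with goitrogen (coefficient 1.01, 2.02-fold). Nqo1, the quinone reductase often used as an NRF2 readout, was between -1.68 and -0.89 without and between -0.75 and 0.23 with goitrogen (coefficient 0.84, 1.79-fold). Gstp1, the pi-class GST, rose 1.51-fold (coefficient 0.60, SE 0.06). Creg1, which encodes a secreted glycoprotein and was named after its values were seen, rose 1.36-fold (coefficient 0.44, SE 0.05). A further Creg1 probe gave 0.20 and was not called. Limma adjusted p-values of these 5 genes lay between 3e-10 and 1.21e-07.

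**Figure D2:**
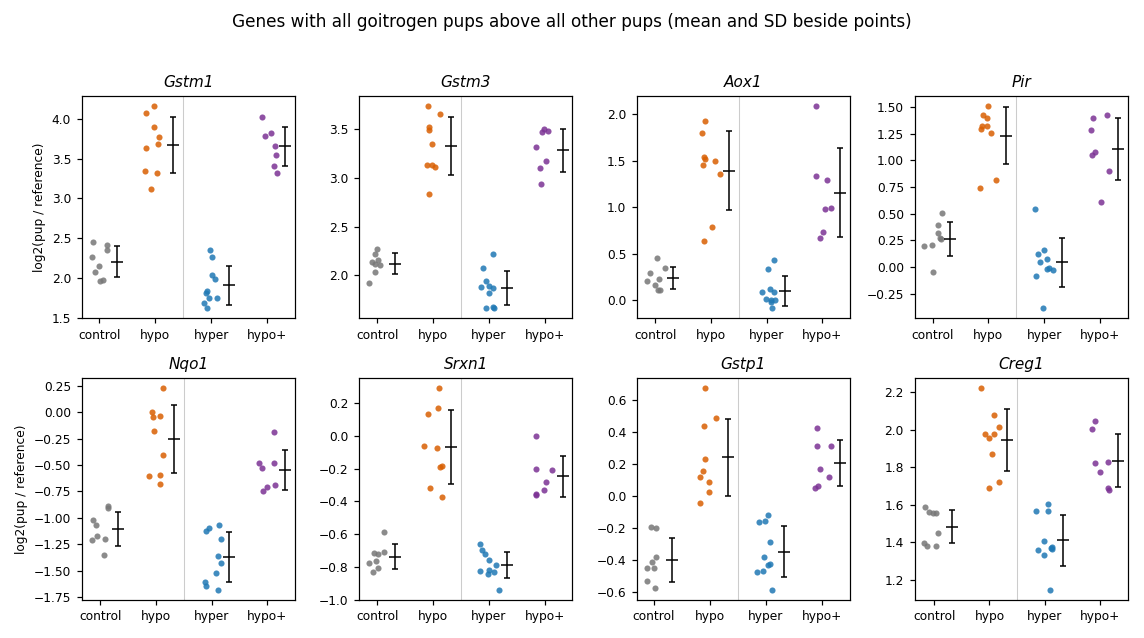
Log2 ratio of pup to reference RNA (vertical axes) in each pup of the 4 groups for the 8 genes in which all 16 exposed pups lay above all 18 unexposed pups. Points are pups, and the bar beside them is the mean with the SD. Control and hyper sit low and hypo and hypo+ sit high in every panel, with Gstm1 set furthest apart.

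Mu-class GSTs conjugate glutathione to reactive compounds and form 1 gene cluster. Of 7 on the array, 5 rose and 0 fell, against a background of 2.47% of genes that rose. All 7 coefficients were positive, with a median of 0.39, where the median of all genes was -0.0046. After Gstm1 and Gstm3 came Gstm2 (0.45, SE 0.09), Gstm4 (0.39, SE 0.06) and Gstm6 (0.36, SE 0.08). Gstm5 had 0.09 and Gstm7 0.15, and neither was called. These genes are near-identical in parts, and the share of each probe's signal that came from its relatives was not tested.

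GSTs of other classes held further genes that rose. Of 14 on the array, 6 rose and 0 fell, against 2.47% and 2.73% of all genes, and 12 coefficients were positive with a median of 0.22. The 6 were Gsta2 (0.66, SE 0.12), Gstp1, Gstt2 (0.52, SE 0.06), Gsta4 (0.27, SE 0.04), and the microsomal Mgst1 (0.23, SE 0.06) and Mgst3 (0.17, SE 0.05). All 6 had an unadjusted p below 0.05 in the same direction in each of hypo minus control and hypo+ minus hyper, as did the 5 mu-class genes. Mgst3 was not called without the 4 libraries rich in acinar transcripts (0.15). Gsta3, among the brightest, had 0.21 and was not called (limma adjusted p = 0.263).

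Of 25 further NRF2 targets on the array, 14 rose and 0 fell, against 2.47% and 2.73% of all genes. A positive coefficient was found in 22, and the median was 0.25. The GST and NRF2 lists were chosen with earlier results of these data known, so their counts are not independent evidence. All 14 were seen in both comparisons. Genes that act on aldehydes, epoxides and quinones were Aox1, Nqo1, Ephx1 and Cbr3. Ephx1, which encodes microsomal epoxide hydrolase, ran from -1.88 to 0.25 in control and from -0.68 to 0.20 in hyper pups, against 0.54 to 1.17 in hypo and -0.06 to 1.31 in hypo+. The injected groups overlapped. It rose 2.13-fold (coefficient 1.09, SE 0.15, limma adjusted p = 1.48e-05). Genes of thioredoxin and peroxide handling were Srxn1, Txnrd1 (0.38, SE 0.05) and Prdx1 (0.21, SE 0.05), both of the latter with an ARE core printed above. Gclc, the catalytic subunit of the enzyme that limits glutathione synthesis, rose 1.36-fold (0.45, SE 0.08) and Gsr, glutathione reductase, rose 1.19-fold (0.25, SE 0.06). Without the 4 libraries Gsr had 0.22 and was not called. Also called were Abcc3, an export pump of conjugates (0.75, SE 0.10, with 0.15 at a second probe), Ugdh, which makes UDP-glucuronate (0.35), Htatip2 (0.36), and the ferritin chains Ftl1 (0.31) and Fth1 (0.26).

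Several widely used NRF2 targets did not pass the test. Hmox1, heme oxygenase 1, was between -0.73 and -0.35 in control, -0.68 and -0.36 in hyper, -0.73 and -0.29 in hypo and -0.71 and -0.19 in hypo+ pups. These ranges lay nearly on top of each other, and the coefficient was 0.06 (95% interval -0.03 to 0.16). Gclm, the modifier subunit beside Gclc, had 0.10 (interval 0.01 to 0.19, limma adjusted p = 0.236). Taldo1 had -0.14 (limma adjusted p = 0.0548), and it was lower and called with the authors' values (-0.19), the scanner's log ratio (-0.18), flagged spots kept (-0.14), slide as a random block (-0.13) and scan batch as a block (-0.13). Osgin1 had -0.23 (adjusted p = 0.343), but it fell in hypo minus control (-0.55, SE 0.14, adjusted p = 0.0361), with 0.10 in hypo+ minus hyper. Slc7a11, the cystine transporter, was not well above background on any of the 34 arrays. Nfe2l2, which encodes NRF2 itself, had -0.04 (SE 0.05).

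**Figure D3:**
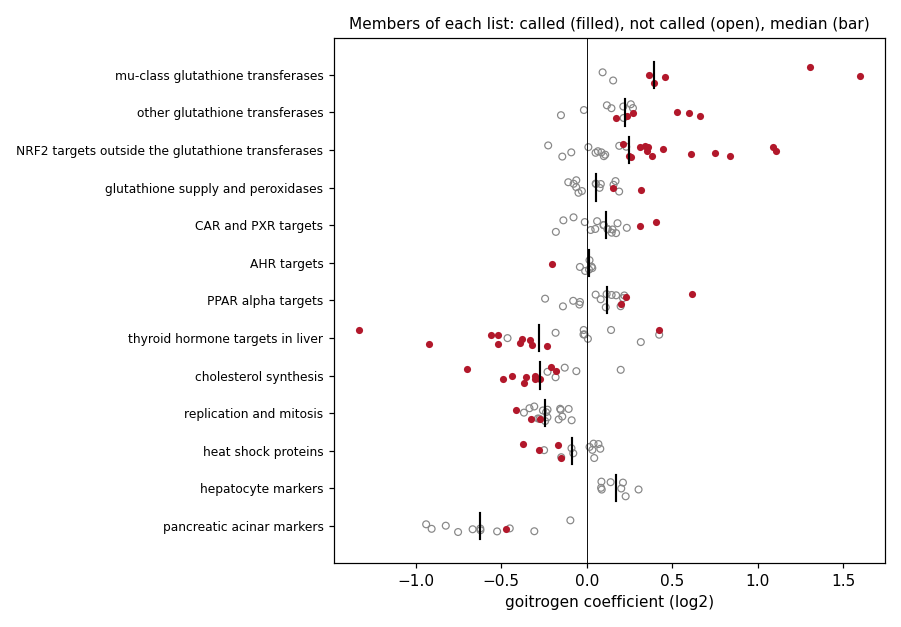
Goitrogen coefficient (horizontal axis, log2) of every member on the array of 13 gene lists, 1 row a list. Filled points were called, open points were not, and the bar is the median of the list. Called members of the GST and NRF2 lists are all to the right of 0 and called members of the cholesterol, replication and heat shock lists all to the left.

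Other lists of xenobiotic and stress responses held a smaller share of called members than the GST and NRF2 lists. Of all genes, 2.47% rose and 2.73% fell. Targets of the receptors CAR and PXR, which sense foreign compounds, had 2 of 18 members that rose, Cyp2c55 (0.40, SE 0.07) and Alas1 (0.31, SE 0.08), and 0 that fell. Of the 18 coefficients, 14 were positive. The standard readouts of CAR and PXR, Cyp2b10 (0.23, limma adjusted p = 0.396) and Cyp3a11 (0.10, adjusted p = 0.783), were not called. Of 7 targets of the aryl hydrocarbon receptor, 0 rose and Tiparp fell (-0.20, SE 0.06), although not with litter as a block (adjusted p = 0.0562). Cyp1a1 had 0.02 (95% interval -0.04 to 0.07). Genes of glutathione supply and peroxidases had 2 of 15 that rose, Cth (0.32) and Gpx4 (0.16), and without the 4 libraries Cth had 0.33 and was not called (limma adjusted p = 0.0503). Flavin monooxygenases and aldehyde-oxidizing enzymes had 1 of 13, Akr1b8 (0.38, SE 0.08), with 11 of the 13 coefficients positive. Of 15 genes of endoplasmic reticulum stress, Sdf2l1 alone fell (-0.32), which it did not without the 4 libraries.

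Targets of PPARα, the fatty acid sensor of the liver, had 3 of 17 that rose, against 2.47% of all genes. Acot3, a peroxisomal acyl-CoA thioesterase, rose most (0.62, SE 0.09), with 0.91 without hormone and 0.32 with it (interaction adjusted p = 0.152). On means per presumed litter Acot3 was not called (limma adjusted p = 0.0594). Acadm (0.23) and Acot2 (0.20) followed, the latter not called with litter as a block or without the 4 libraries. Cpt1a, a standard target, had 0.05 (SE 0.05).

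Among the remaining genes with the largest increases, Ces1f, a carboxylesterase, ran from 1.30 to 2.01 in control, 1.24 to 2.47 in hyper, 2.34 to 3.72 in hypo and 2.45 to 3.40 in hypo+ pups. Both exposed groups overlapped with hyper at the edge and neither with control. It rose 2.49-fold (coefficient 1.32, SE 0.12, limma adjusted p = 2.14e-08). Serpina7 encodes thyroxine-binding globulin, which carries T4 in blood, and rose 1.76-fold (0.82, SE 0.16, adjusted p = 0.00158), with 0.80 without and 0.84 with hormone. Its ranges of 3.47 to 4.22 in control and 3.27 to 5.64 in hypo pups overlapped. Vldlr, a receptor for triglyceride-rich lipoproteins, rose 1.59-fold (0.67, SE 0.11). Ppp1r3c, a glycogen-targeting subunit of protein phosphatase 1, had 1.07 without and 0.20 with hormone (coefficient 0.64, interaction adjusted p = 0.244), and a second probe was not called. The identifiers NM_197983 (0.73) and A_52_P1156957 (0.71), which could not be given a symbol here, also rose, as did U31966 (0.66, SE 0.08), which was chosen outside the rule for such identifiers.

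The gene that fell most was Thrsp, also known as Spot 14, a lipogenic protein whose gene TH induces. Its lowest, median and highest log2 ratios were 1.39, 2.38 and 2.71 in control, 0.03, 0.50 and 1.78 in hypo, 2.56, 3.28 and 4.06 in hyper and 0.97, 2.16 and 3.37 in hypo+ pups. Hypo pups were low and hyper pups high, and hypo+ pups covered the control range. The coefficient was -1.33 (SE 0.19), 2.52-fold lower (limma adjusted p = 2.01e-05). It was -1.52 without and -1.14 with hormone.

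Genes of several other functions were among the 12 that fell most. The uncharacterized gene 2210407C18Rik had -1.18 (SE 0.14), without overlap between exposed and unexposed pups in either comparison. Mup1, a urinary pheromone carrier of a large near-identical family whose share in the probe's signal was not tested, had -0.91 (SE 0.13). Nrp1, a co-receptor for semaphorins and VEGF, ran from 0.77 to 1.77 in unexposed and from -0.43 to 0.79 in exposed pups (-0.86, SE 0.08, limma adjusted p = 2.79e-08). The ranges met at their edges only, and a second Nrp1 probe gave -0.38. Nudt7, a coenzyme A hydrolase of peroxisomes, had -0.74 (SE 0.09) and Nat8f2, of an acetyltransferase family, also -0.74 (SE 0.14). Prodh, proline dehydrogenase, had -0.74 (SE 0.19) and was not called without the 4 libraries (-0.61). Cyp8b1, which directs bile acid synthesis to cholic acid, had -0.70 (SE 0.14), and Gbp3, a guanylate-binding protein, had -0.70 (SE 0.09). The identifiers AK158295 (-1.30) and U96752 (-0.97) fell as well.

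Of 20 genes on the array that are listed as TH targets in liver, 10 fell and 1 rose, against 2.73% and 2.47% of all genes, with a median of -0.28. This list holds genes taken from the study on these samples and is not independent evidence of a direction. In hypo minus control 9 members fell (median -0.38), against 0.919% of all genes. In hypo+ minus hyper 3 did (median -0.03), against 3.16%. The interaction was called in Dio1, Sned1 and Trim24. The members seen in both comparisons, with an unadjusted p below 0.05 in each, were 6 of the 11 called, namely Dio3, Slc25a45, Thrsp, Fasn, the fatty acid synthase (-0.39, SE 0.08), Idh3a of the citric acid cycle (-0.33, SE 0.05), and Bcl3, an NF-κB cofactor (-0.56, SE 0.09). Slc25a45, a mitochondrial carrier, had -0.52 (SE 0.07). Gpd2, the mitochondrial glycerol phosphate dehydrogenase, fell as well (-0.52, SE 0.09). Me1, malic enzyme, had -0.23 and was called neither with litter as a block (adjusted p = 0.0634) nor without the 4 libraries. Dio3, which inactivates T4 and T3, was the member that rose (0.42, SE 0.12, limma adjusted p = 0.0373). Dio3 stayed called in 11 of 19 alternatives, which include each sex alone. It was not called on means per presumed litter (limma adjusted p = 0.0843), and 12 of the single arrays left out in turn lost the call. Klf9 (-0.18, adjusted p = 0.474) and Cyp7a1, the rate-limiting enzyme of bile acid synthesis (-0.46, adjusted p = 0.0708), were not called.

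The coefficient averages the injection states, and in a few genes they differed. The goitrogen by injection interaction called 35 probes (0.085%) and 20 genes (0.121%), and 3951 probes had an unadjusted p below 0.05. Dio1, the type 1 deiodinase that activates T4, was between 5.60 and 6.42 in control, 3.47 and 5.07 in hypo, 5.93 and 7.14 in hyper and 5.78 and 6.63 in hypo+ pups. Hypo pups alone stood apart. The difference was -1.63 (SE 0.17) without hormone and -0.19 (SE 0.18) with it, and the interaction was 1.44 (SE 0.25, limma adjusted p = 0.0115). Bmf, which promotes apoptosis, had -1.31 without and -0.16 with hormone (interaction 1.15, adjusted p = 0.0277), though its other probes gave -0.02 and -0.11. Sned1, an extracellular matrix gene, had -0.71 and -0.03 (0.68, adjusted p = 7.85e-05), and Trim24, a nuclear receptor cofactor, had -0.62 and -0.02 (0.59, adjusted p = 0.0203). Rad51ap1, a DNA repair gene, ran the other way, with -0.05 without and -0.42 with hormone (-0.37, adjusted p = 0.0366). For Dio1, Bmf, Sned1, Trim24 and Rad51ap1 the goitrogen coefficient is thus an average of unlike differences.

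**Figure D4:**
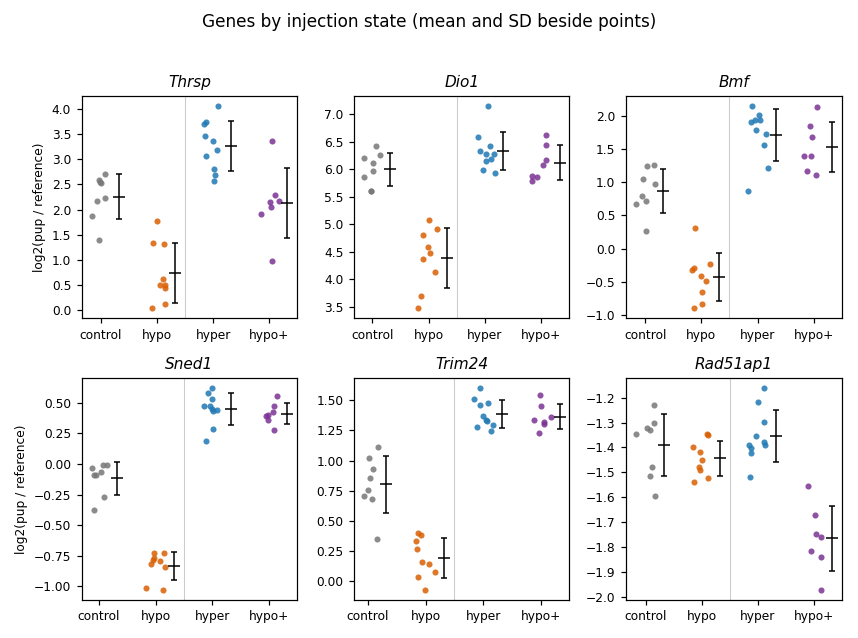
Log2 ratio of pup to reference RNA (vertical axes) in each pup of the 4 groups for Thrsp and for 5 genes whose goitrogen difference depended on injection. Points are pups, with the mean and SD beside them. Hypo pups stand below control pups in Dio1, Bmf, Sned1 and Trim24 while hypo+ and hyper pups differ little, and in Rad51ap1 it is the hypo+ pups that stand low.

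Most genes examined of cholesterol synthesis fell. Of 15 on the array, 10 fell and 0 rose, against 2.73% and 2.47% of all genes, with a median of -0.27. Along the pathway these were Hmgcs1 (-0.49, SE 0.09), Mvk (-0.18), Fdps (-0.30), Sqle (-0.30), Cyp51 (-0.37), Msmo1 (-0.70, SE 0.08), Nsdhl (-0.21) and Dhcr7 (-0.44). The regulators Srebf2 (-0.36) and Insig1 (-0.27) were the others. Msmo1, a sterol C4-methyl oxidase, lay between -1.94 and -1.36 in control and -1.44 and -0.48 in hyper, against -2.52 and -2.04 in hypo and -2.03 and -1.44 in hypo+ pups. Hypo did not overlap with control, and hypo+ met hyper at the edge. In hypo+ minus hyper 10 members fell, against 3.16% of all genes, and in hypo minus control Hmgcs1 and Msmo1 did, against 0.919%. Hyper pups had the higher hormone dose of the injected pair, and goitrogen and dose cannot be told apart there. Fdft1 was the exception in sign, at 0.20 (limma adjusted p = 0.115). Without the 4 libraries 9 fell, and Sqle did not. With median centring, which called few probes, 2 members fell, and that setting left 3 mu-class GSTs, 2 other GSTs, 5 NRF2 targets and 5 TH targets called, all in the direction given above. Second probes of Srebf2 (0.04) and Dhcr7 (-0.17) were not called, nor was 1 of the further probes each of Cyp51 (-0.19) and Nsdhl (-0.16).

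Replication and mitosis genes had a negative coefficient in all 19 members on the array (median -0.24). Of these 3 fell, against 2.73% of all genes, namely Top2a (-0.33), Aurkb (-0.41) and E2f8 (-0.27). In hypo+ minus hyper 15 of 19 fell (median -0.44), where 3.16% of all genes did, with Ccnb1 at -0.71 and Top2a at -0.62. In hypo minus control 0 of 19 fell (median -0.04), where 0.919% of all genes did. The interaction was called in 1 of the 19, Mcm3 (-0.42, limma adjusted p = 0.0225). A second Top2a probe gave -0.11, and without the 4 libraries Top2a and Aurkb were not called. Of 14 heat shock genes 4 fell, against 2.73% of all genes, namely Hsph1 (-0.37), Dnaja1 (-0.28), Dnaja4 (-0.17) and Dnaja3 (-0.15). Of these, Dnaja1 and Dnaja3 were not called without the 4 libraries, and Dnaja3 not with litter as a block. Second probes of Dnaja3 (-0.22) and Dnaja4 (-0.03) were not called.

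Markers of other cell types gave few calls, where 2.47% of all genes rose and 2.73% fell. Of 9 erythroid genes Slc4a1 fell (-0.51, SE 0.15), but neither with litter as a block (limma adjusted p = 0.0607) nor without the 4 libraries (-0.44, adjusted p = 0.16). Of 12 acinar genes Amy2a5 fell (-0.47, SE 0.13), and the list had a median of -0.62 overall and -1.51 in hypo minus control, where the control group holds 3 of the 4 libraries rich in these transcripts. Without the 4, Amy2a5 had -0.30 and was not called, the median of the list was -0.0095, and 2 other members fell, Cela1 (-0.22) and Cela2a (-0.21). Called members were 0 of 8 hepatocyte genes (median 0.17), 0 of 8 Kupffer cell genes, 0 of 10 endothelial and stellate genes, 0 of 6 cholangiocyte genes, 0 of 7 lymphoid genes and 0 of 5 sex-linked genes.

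The called genes examined had the same direction in males and females. The goitrogen by sex interaction in limma called 0 probes, with a smallest adjusted p of 0.986 and 549 probes at an unadjusted p below 0.05. The 549 are a smaller share of the 41174 probes than the 0.05 that chance gives, so this test was conservative. Presumed litters with both sexes numbered 14, and litter was not a term of it. The 0 calls do not show that the sexes responded alike. Fitted alone, males gave 1.60 and females 1.58 for Gstm1, 1.30 and 1.30 for Gstm3, and 0.64 and 0.58 for Srxn1. All 86 called genes examined had the same sign in both sexes, although 23 were called in the fit of males and 30 in that of females. These genes were chosen by a coefficient that averages the same males and females, which favours a shared sign. Gstm1, Gstm3, Srxn1, Nqo1, Pir, Aox1, Gstp1 and Creg1 were higher with goitrogen within each of 10 slides and each of 6 scan batches. These slides and batches held both exposed and unexposed pups. In these genes every exposed pup lay above every unexposed pup, so that this result was fixed in advance. It therefore does not test an effect of slide or scan batch. The difference of Gstm1 lay between 0.76 and 2.15 over slides. Thrsp was lower in 9 of 10 slides, and Serpina7 higher in 9 of 10.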

How the data were processed

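Liver RNA of 34 pups was hybridized to Agilent mouse arrays, 1 pup an array, with pup RNA in Cy5 and universal reference in Cy3 and no dye swap. The authors deposited scanner files of spot intensity, whose median signals are not background-subtracted, and a log10 ratio that the software computed. They also deposited their own log2 ratios after loess normalization. The methods state that 2 outlier arrays of each sex were removed, and these are not analysed here. The sexes and groups come from the labels.

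From the median intensities, log2 ratios of Cy5 to Cy3 were loess-normalized array by array (span 0.3, no background subtraction) in limma 3.58.1 under R 4.3.3. Control spots and spots with outlier flags (77 to 212 an array) were left out, and spots of each of 41174 probes were averaged. RefSeq accessions gave a symbol to 16806 of the 33541 names in the files. Probe sequences were not used here. Median signals lay between 146 and 199 (Cy5) and between 64 and 100 (Cy3). Arrays give no counts, so precision rests on the number of arrays. No pair of arrays was a duplicate (correlations 0.951 to 0.987).

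The goitrogen coefficient came from lmFit and eBayes on all 34 arrays with injection and sex as covariates, and the interactions and group differences from fits on the same arrays, with Benjamini-Hochberg adjustment over all probes at 0.05. A gene is read from its brightest probe. The genes named are the 12 highest and 12 lowest called coefficients, called list members and a few of the brightest others, the 5 called genes with the smallest interaction p, and the 8 genes without overlap. A few genes of the lists are not reported here, and list counts and medians leave them out. Members, lists and alternatives were chosen with earlier results of these data known. The litter was inferred from the animal numbers and had a correlation of 0.109 as a random block, against 0.229 for slide. The script was tested on simulated data.

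Alternatives were normexp correction (offset 50), median centring, the authors' values, the scanner's log ratio, Cy5 alone with quantile normalization, flagged spots kept, probes above negative controls, probes averaged by gene, litter, slide and scan batch as blocks or means, each sex alone, other terms and priors in the model, and each array left out. Leaving out the 4 libraries highest in acinar genes was added after seeing the data.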

Additional observations from a re-analysis of the deposited data

Results flagged for a closer look

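Dixon's gap test was applied to the 86 called genes named above to find a pup far from the rest of its group, over 344 pairs of gene and group, of which 18 had such a pup. Chance alone gives about 1 in 20 groups. Values here are log2 ratios of pup to reference.

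Control pup 522, a library rich in acinar transcripts, stood apart in 3 genes, low in Ephx1 (-1.88) and A_52_P1156957 (0.95) and high in Alas1 (3.46). Hypo+ pup 454 was high in Nudt7 (5.10) and Msmo1 (-1.44) and low in Acot2 (-1.12), and hyper pup 585 was high in Ftl1 (0.053). The GST and NRF2 genes had 4 further such pups besides Ephx1 and Ftl1, hypo pup 891 for Gstm6 (2.10, low), hypo+ pup 363 for Srxn1 (-0.0011, high), control pup 881 for Htatip2 (1.56, low) and control pup 523 for Gsta2 (-0.17, high). The others were control pup 831 in Cyp8b1 (3.56), control pup 391 in Gpd2 (1.01), hypo+ pup 761 in U96752 (3.77), hypo+ pup 543 in Idh3a (0.76), hypo+ pup 546 in Amy2a5 (4.09), hyper pup 498 in Cth (3.44) and hyper pup 783 in Nsdhl (-0.43).

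The goitrogen difference changed with injection, by the interaction in limma, in 5 of the genes named by rule and in 1 further list member, Mcm3. The interaction was 1.44 in Dio1, 1.15 in Bmf, 0.68 in Sned1, 0.59 in Trim24 and -0.37 in Rad51ap1. The injected dose also differed between the groups compared, and its part cannot be told apart from that of goitrogen. The same holds for the selection of hypo+ pups on serum T4.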

How the results depend on the processing

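No paired analysis was possible because the animal numbers, which serve as replicate numbers, all differ between the groups. All 6 scan batches and 10 of 11 slides held exposed and unexposed pups. The other slide held hypo+ pups 363 and 601 alone. Fitted as blocks, slide gave 2205 called probes as a random and 1524 as a fixed block, and scan batch 2235 as a fixed block. Of 86 called genes examined, 25 were called under all 17 alternatives over both sexes and 46 when median centring is set aside. Every one kept its sign in each sex, which their choice by a fit of both sexes favours, and 75 stayed called without any single array. The alternatives that moved a count or share were these. Normexp gave 1213 probes higher, 9 for the interaction, and shares of same direction of 89.3% (hypo against control first) and 88.2% (hypo+ against hyper first). Median centring gave 157 probes (57 higher, 100 lower), 59 in hypo minus control, 17 in hypo+ minus hyper, 0 for the interaction, a share of 88.5% and an ARE core in 22.2% of windows. The share with hypo+ against hyper first was 78.9% with the authors' values, 78.1% with the scanner's log ratio (interaction 22) and 72.1% without the 4 libraries rich in acinar transcripts (304 probes in hypo minus control). Cy5 alone gave 822 in hypo+ minus hyper, 3 for the interaction, and 89.3% and 90.4%. Litter as a block gave 19 for the interaction, and a mean per litter gave 948 probes (453 higher, 495 lower). With that mean 65 of the 86 genes stayed called and 21 did not. The latter were Acot2, Acot3, Alas1, Amy2a5, Bmf, Dio3, Dnaja1, Dnaja3, Gsr, Gstm6 and Hsph1. Also among them were Insig1, Me1, Mgst3, Ppp1r3c, Prodh, Slc4a1, Tiparp, Top2a, Trim24 and A_52_P1156957. Slide as a fixed block gave 783 in hypo+ minus hyper and 11 for the interaction. Males alone gave 163 probes (65 higher, 98 lower; ARE core 19.4%) and females 146 (78 higher, 68 lower; 22.7%), each with fewer arrays. The cause of the other shifts was not tested.

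Over arrays left out in turn, the goitrogen coefficient called 1267 to 1870 probes (647 to 930 higher, 606 to 959 lower), hypo minus control 377 to 572, hypo+ minus hyper 699 to 1933, the interaction 10 to 92 and the sex interaction 0 to 0. Shares of same direction were 81.5% to 89.4% and 76% to 89%, and the ARE core 14.4% to 16.9%. The interaction count was 22 without control 522, 10 without control 882, 73 without hyper 498, 20 without hyper 499, 21 without hyper 783, 23 without hyper 864, 20 without hypo 311, 21 without hypo 316, 72 without hypo 721, 16 without hypo 891, 92 without hypo+ 546, 14 without hypo+ 601 and 12 without hypo+ 761. Precision rests on 16 and 18 arrays, and probes near background limit dim genes such as Slc7a11.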
